A study of Bos taurus with 13 samples.

Results

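Toll-like receptors are germline-encoded receptors through which blood leukocytes recognise molecules of microbes, and the genes *TLR1* to *TLR10* were examined here in whole blood of dairy cows. The members were taken by gene name from the deposited count tables. Of the 10 names, 7 had an entry (*TLR2*, *TLR3*, *TLR4*, *TLR5*, *TLR6*, *TLR7* and *TLR10*), among 16095 named genes in all. No entry was named *TLR1*, *TLR8* or *TLR9*, and these were not analysed here. The RefSeq gene table of cattle (assembly ARS-UCD2.0) has genes named *TLR8* and *TLR9*, and lists *TLR1* as a synonym of both *TLR6* and *TLR10*. All 7 genes found passed the filter on low counts, which 11033 named genes passed.

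Each receptor has an outer part that binds the microbial molecule and an inner domain that recruits adaptor proteins. Through the adaptor MyD88, or through TRIF (the product of *TICAM1*), the signal reaches kinases and then the transcription factors of the NF-kB and IRF families, which switch on genes of cytokines and interferons. The receptors of bacterial surface molecules sit mainly on the cell surface, and those of nucleic acids in endosomes, where the chaperone UNC93B1 delivers them. In blood they are carried mostly by neutrophils, monocytes, dendritic cells and B cells, and cortisol is known to dampen the inflammatory genes downstream of them.

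The cows were lactating animals of the Italian Red Pied breed (named Italian Simmental in the study's methods), clinically healthy and from 1 commercial farm, and they were ranked by the cortisol concentration of their milk. RNA of blood cells, preserved in PAXgene tubes at sampling and sequenced without globin depletion, was available for 7 cows at the high end of this ranking (high group, replicates 1 to 7) and 6 at the low end (low group, replicates 8 to 13). The groups were formed by this ranking and no treatment is named, and the sample labels give no age, parity, stage of lactation or milk cortisol of a single cow. The group of each cow rests on its label and was not checked against another record. In all 13 count tables the header refers to another animal number than the table's own title, and its alignments were kept in a directory called goat, so the assignment of tables to cows follows the labels alone.

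Between 11045599 and 28124575 reads per cow were counted on named genes, and values are given as CPM, that is counts scaled to a common library size with TMM factors. A count of 0 would allow up to 3 counts, which stand for 0.107 to 0.272 CPM before TMM scaling and cover counting error only. Defining blood cell genes were present in all cows, with a median of 1146 CPM for *PTPRC* (the leukocyte antigen CD45), 3262 CPM for *CSF3R* (neutrophils), 1038 CPM for *CD3E* (T cells), 356 CPM for *MS4A1* (B cells) and 363 CPM for *CSF1R* (monocytes). Replicate 4 of the high group stood apart on the first principal component of 11030 genes (29.0% of the variance), with a score of 62.4, while the other 12 cows lay between -31.3 and 19.1. The groups also differed in the share of named-gene counts from the haemoglobin genes *HBB*, *HBG*, *HBM* and *HBQ1*. No other haemoglobin gene entered this share, so it is not that of all haemoglobin RNA. It was between 0.0282% and 0.815% in the high group and between 0.0114% and 0.0552% in the low group. On the log2 share the two-sided exact permutation p was 0.0152. The neutrophil marker score, the mean over 7 marker genes of log2 CPM centred on each gene, was lower in the high group by 0.25, which did not exceed the spread between cows (exact permutation p = 0.204). For the log2 fold changes of the receptor genes between the groups, 3 alternatives are given below where they move the value by over 1.5 times. These are without replicate 4, with the haemoglobin share as a covariate, and with the neutrophil score as a covariate. They are not given for the other genes of the pathway.

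Transcript levels differed widely between the receptors. To set genes beside each other, CPM was divided by the summed exon length of the gene in kilobases (RPKM). *TLR4*, the receptor of bacterial lipopolysaccharide, had a geometric mean of 42.6 RPKM over the 13 cows. *TLR2*, which senses bacterial lipoproteins, had 38.2 RPKM, and *TLR7*, which senses single-stranded RNA, had 37.9 RPKM. These 3 genes filled the first 3 places in 13 of 13 cows, although in changing order.

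*TLR6*, which pairs with TLR2 to bind diacylated lipoproteins, followed with 19.4 RPKM. *TLR10*, a close relative of TLR6 whose ligand is less settled, had 11.4 RPKM, and *TLR3*, which senses double-stranded RNA, had 8.30 RPKM. *TLR5*, the receptor of bacterial flagellin, had 1.10 RPKM. Among the 11033 genes tested, the median RPKM of *TLR4* stood at percentile 77.6 and that of *TLR5* at percentile 12.3. The leading 3 genes thus stood high among the genes tested, whereas *TLR5* stood near the lower end.

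Neighbours in this order were compared within each cow by a two-sided exact sign-flip test of the log2 ratio, adjusted over 6 neighbour pairs. *TLR4* exceeded *TLR2* in 9 of 13 cows, with a ratio of 1.12 (exact p = 0.166, adjusted p = 0.199). *TLR2* exceeded *TLR7* in 7 of 13 cows, with a ratio of 1.01 (exact p = 0.857, adjusted p = 0.857). The order within the leading 3 was therefore not resolved beyond the spread between cows, and *TLR2* and *TLR7* changed places without replicate 8, 10 or 13 of the low group.

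The lower steps exceeded the spread between cows. The test does not cover a bias in the exon length or read assignment of a gene that all cows share. *TLR7* exceeded *TLR6* by a ratio of 1.95 in 13 of 13 cows, and *TLR6* exceeded *TLR10* by a ratio of 1.71 in 13 of 13 cows (exact adjusted p = 0.000488 for each, from 0.000244, the smallest p that 8192 sign flips can give). *TLR10* exceeded *TLR3* by a ratio of 1.37 in 10 of 13 cows (exact adjusted p = 0.0132). The widest step lay between *TLR3* and *TLR5*, with a ratio of 7.57 in 13 of 13 cows (exact adjusted p = 0.000488). The complete order of the means was found in 4 of 13 cows.

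**Figure D1:**
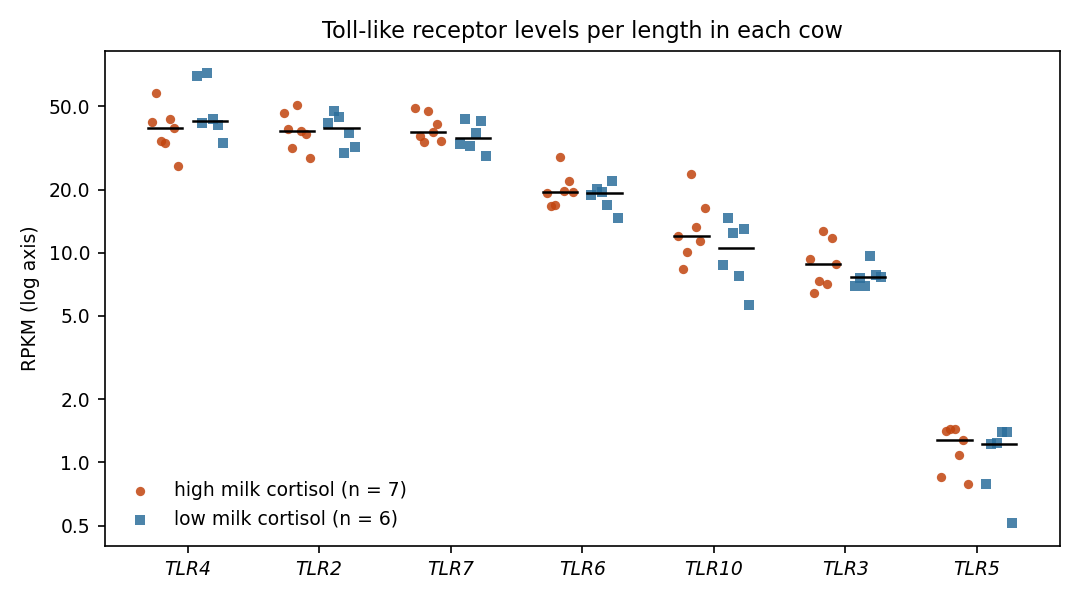
RPKM on a log axis for the 7 Toll-like receptor genes, with 1 point per cow, circles for the high group (n = 7), squares for the low group (n = 6) and a bar at the median of each group. *TLR4*, *TLR2* and *TLR7* overlap at the top between 25.9 and 71.9 RPKM, *TLR5* lies lowest between 0.513 and 1.45 RPKM, and the groups overlap in every gene.

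The comparison of high with low milk cortisol asks whether receptor transcripts in blood differ between cows at the ends of the cortisol ranking. None of the 7 receptor genes passed an adjusted p of 0.05 in edgeR's quasi-likelihood test (adjusted p = 0.998 for each, adjusted over 11033 genes). The same test called 0 of all 11033 genes, which is 0%, so the count of 0 members is that of the background. At an unadjusted p below 0.05 the members again numbered 0, beside 231 of all genes tested (2.09%, of which 0.934% higher and 1.16% lower in the high group). The log2 fold change, high minus low, was above 0 in 5 members and below 0 in *TLR2* and *TLR4*. Its median was 0.13 over the members and 0.01 over all genes tested, and the median size without sign was 0.14 and 0.11. In whole blood a change in the number of cells of a type and a change in RNA per cell cannot be told apart, and this holds for each value that follows.

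Among the receptors of bacterial molecules at the cell surface, *TLR4* had the lowest log2 fold change. The gene lies on chromosome 8 (108828899-108839910 of UMD3.1, plus strand, 3 exons). It had 96.4 CPM in the lowest, 146.2 CPM in the median and 214.8 CPM in the highest cow of the high group, and 124.7, 158.1 and 267.0 CPM in the low group. Replicates 8 and 10 of the low group were above every cow of the high group, replicates 4 and 7 of the high group were below every cow of the low group, and the remaining 9 cows overlapped. On the log2 scale the change was -0.35 ± 0.20 (SE; edgeR p = 0.0994, exact permutation p = 0.182), with 5 of 7 high cows below the low median. Its 95% interval corresponds to a fold between 0.587 and 1.05. Leaving out replicate 2 of the high group gave -0.46 and leaving out replicate 13 of the low group -0.44, both with an unadjusted p below 0.05 in edgeR, while leaving out replicate 8 or 10 of the low group gave -0.23 and -0.22. With the haemoglobin share as a covariate it was -0.10.

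*TLR2* lies on chromosome 17 (3949710-3963032 of UMD3.1, minus strand, 2 exons). It had 101.9, 138.3 and 183.7 CPM in the lowest, median and highest cow of the high group, and 108.4, 142.5 and 171.0 CPM in the low group. Both the highest and the lowest of the 13 cows, replicates 4 and 7, belonged to the high group, so its range enclosed that of the low cows. As a log2 fold change the difference was -0.002 ± 0.14 (SE; edgeR p = 0.987, exact permutation p = 0.956), and its 95% interval corresponds to a fold between 0.808 and 1.23. With the haemoglobin covariate it was 0.18, with the neutrophil covariate 0.06 and without replicate 4 -0.08.

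*TLR6* and *TLR10* lie near each other on the minus strand of chromosome 6 (59687276-59706713 and 59670233-59677223 of UMD3.1, 2 exons each). They are related in sequence, and how the counting treated reads that fit both is not given in the sources used here, so the division of reads between them is uncertain. Where reads of *TLR1*, which has no named entry, were counted is not known either. *TLR6* had 40.1, 46.2 and 68.5 CPM in the lowest, median and highest cow of the high group, and 35.1, 45.7 and 52.5 CPM in the low group. Only replicate 4, and by a small margin replicate 6, of the high group lay above the low group, and replicate 13 of the low group was lowest. The difference, as a log2 fold change, was 0.13 ± 0.13 (SE; edgeR p = 0.349, exact permutation p = 0.429), with 5 of 7 high cows above the low median, and was 0.03 without replicate 4. It was 0.07 without replicate 13 of the low group, 0.08 with the haemoglobin covariate and 0.19 with the neutrophil covariate.

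*TLR10* had the highest log2 fold change of the 7 genes. Its values were 26.2, 37.8 and 74.4 CPM in the lowest, median and highest cow of the high group, and 17.7, 33.2 and 46.0 CPM in the low group. Replicates 4 and 7 of the high group were above all low cows and replicates 11 and 13 of the low group below all high cows, with the other 9 overlapping. The log2 fold change was 0.40 ± 0.25 (SE; edgeR p = 0.126, exact permutation p = 0.196), with a 95% interval that corresponds to a fold between 0.917 and 1.90, and 5 of 7 high cows were above the low median. Without replicate 4 it was 0.21, and with the haemoglobin covariate 0.12.

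*TLR5*, on chromosome 16 (27303741-27306317 of UMD3.1, minus strand, 1 exon), was the least covered, with 22 to 98 counts per cow. It had 2.03, 3.28 and 3.74 CPM in the lowest, median and highest cow of the high group, and 1.32, 3.17 and 3.61 CPM in the low group. The groups overlapped, with replicate 13 of the low group alone below the high group. Replicates 2, 3 and 4 of the high group lay above all low cows by a small margin. On the log2 scale the change was 0.12 ± 0.26 (SE; edgeR p = 0.649, exact permutation p = 0.541), and the 95% interval corresponds to a fold between 0.743 and 1.59. The value was 0.06 without replicate 4 and 0.37 with the neutrophil covariate, and it lay between -0.02 and 0.21 over all 13 fits with 1 cow left out. The value of -0.02 was without replicate 13 of the low group, and leaving out replicate 1, 2, 3 or 7 of the high or 8, 11 or 12 of the low group also moved it by over 1.5 times.

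Of the endosomal receptors of RNA, both had a higher median in the high group, by less than the spread between cows. *TLR7*, on the X chromosome (141044355-141063596 of UMD3.1, minus strand, 3 exons), had 115.1, 128.4 and 167.3 CPM in the lowest, median and highest cow of the high group, and 98.2, 119.8 and 148.3 CPM in the low group. Replicates 1 and 4 of the high group lay above all low cows, and 3 low cows lay below all high cows. Its log2 fold change was 0.14 ± 0.12 (SE; edgeR p = 0.278, exact permutation p = 0.286), with 5 of 7 high cows above the low median. Leaving out replicate 1 (high) or replicate 13 (low) gave 0.08 each.

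*TLR3*, on chromosome 27 (15232459-15243399 of UMD3.1, plus strand, 5 exons), had 19.5, 26.8 and 38.3 CPM in the lowest, median and highest cow of the high group, and 20.9, 23.2 and 29.2 CPM in the low group. Replicates 4 and 6 of the high group were above the low range and replicate 2 was below it, so the low cows lay inside the range of the high cows. The difference, as a log2 fold change, was 0.22 ± 0.16 (SE; edgeR p = 0.193, exact permutation p = 0.277), and 0.12 without replicate 4.

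**Figure D2:**
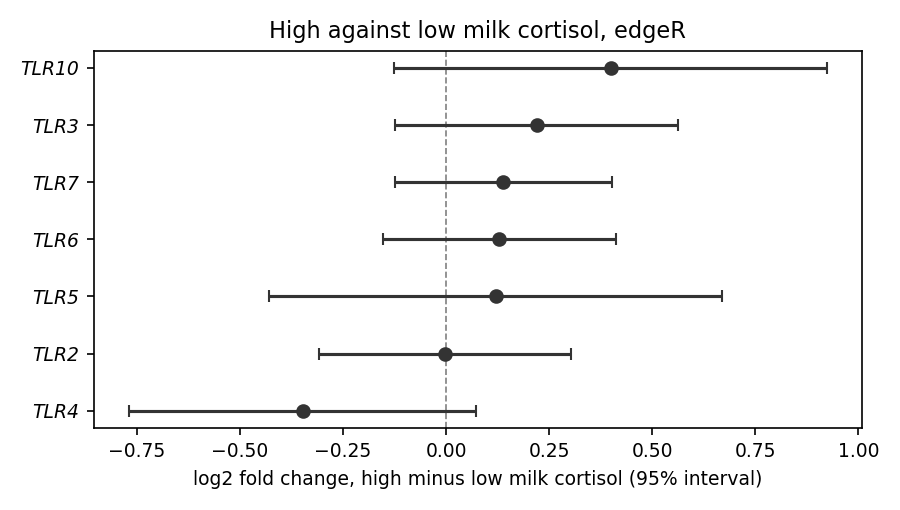
Log2 fold change, high minus low milk cortisol, of the 7 genes from edgeR, with points for the estimate and bars for the 95% interval. All intervals cross the dashed line at 0, from *TLR4* at -0.35 to *TLR10* at 0.40.

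The receptors also differed in how much they varied over the cows, whatever the group. The SD of log2 CPM over the 13 cows was 0.53 for *TLR10*, 0.44 for *TLR5* and 0.42 for *TLR4*. It was 0.30 for *TLR3*, 0.27 for *TLR2*, 0.24 for *TLR6* and 0.23 for *TLR7*. Since low counts vary more, each SD was ranked among the genes whose mean log2 CPM lay within 0.5 of the gene. *TLR10* stood at percentile 94.8 and *TLR4* at percentile 93.2 of the genes of like level, and the others lay between percentiles 37.7 (*TLR5*) and 71.1 (*TLR2*). From the lowest to the highest cow, *TLR10* ranged 4.21-fold and *TLR4* 2.77-fold on the CPM scale, against 1.70-fold for *TLR7*.

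Replicate 4 of the high group was the highest cow in *TLR2*, *TLR3*, *TLR6* and *TLR10*, the last by 1.06 above the gene mean on the log2 CPM scale. Replicate 13 of the low group was the lowest in *TLR5*, *TLR6*, *TLR7* and *TLR10*, with deviations of -1.01 in *TLR10* and -1.04 in *TLR5*. *TLR4* followed another pattern, with its highest values in replicates 8 and 10 of the low group and its lowest in replicate 7 of the high group, a cow with the second highest *TLR10*.

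**Figure D3:**
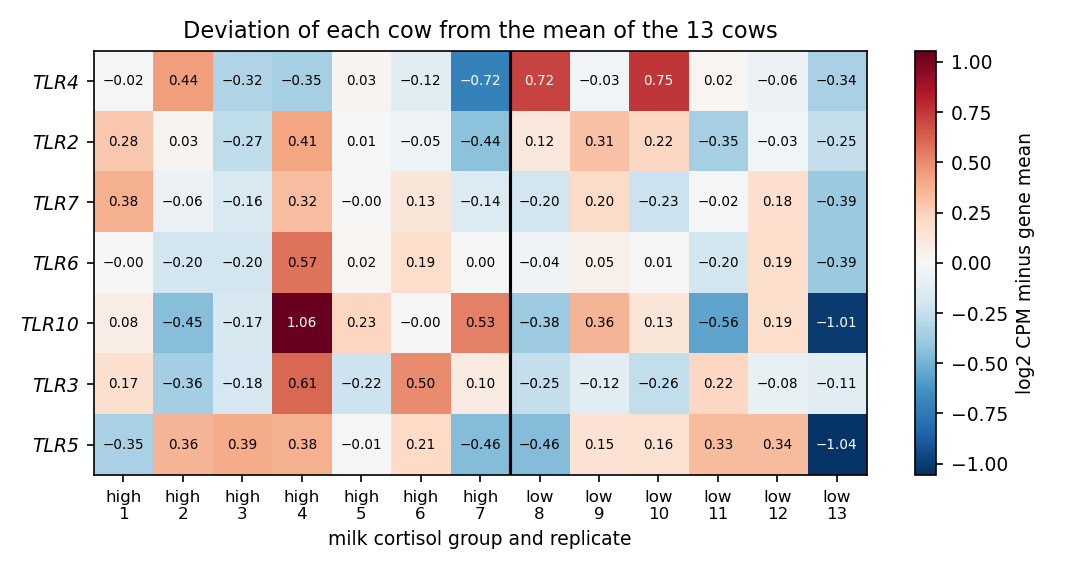
Log2 CPM of each gene in each of the 13 cows minus the mean of the gene over all cows, red above and blue under the mean, with a line between the high (replicates 1 to 7) and low group (replicates 8 to 13). *TLR10* spans the widest range, from -1.01 in replicate 13 of the low group to 1.06 in replicate 4 of the high group, and no gene separates the groups.

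Co-variation was examined over the 21 pairs of the 7 genes, as the correlation of log2 CPM over the 13 cows, which share library and scaling. Pearson's r was positive in 17 pairs, with a median of 0.43, and 1 pair had an adjusted permutation p below 0.05. This pair was *TLR6* and *TLR10* (r = 0.87, permutation p = 0.00015, adjusted p = 0.00315). Both genes were high together in replicate 4 of the high group and low together in replicate 13 of the low group. Spearman's rho was 0.79 (permutation p = 0.00245, adjusted p = 0.0515), r was 0.85 within the high and 0.92 within the low group, and it was 0.64 without the 2 cows farthest from the median of *TLR6*. Without replicate 4 it was 0.79 (adjusted permutation p = 0.0395).

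*TLR6* was the 9th closest of 11032 other genes to *TLR10* by r, and *TLR10* the 20th closest to *TLR6*. The genes around the pair on chromosome 6 followed them less closely, with r between 0.33 and 0.53 for *KLF3*, *FAM114A1* and *TMEM156* (smallest adjusted permutation p = 0.208 over 6 relations). The part of shared reads in the correlation of *TLR6* and *TLR10* was not tested.

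After *TLR6* and *TLR10*, the highest r were 0.70 for *TLR6* and *TLR7* (permutation p = 0.00561, adjusted p = 0.0589; rho = 0.64) and 0.63 for *TLR7* and *TLR10* (adjusted permutation p = 0.117; rho = 0.53). *TLR3* and *TLR6* had an r of 0.62 (adjusted permutation p = 0.117; rho = 0.45), which was 0.04 without the 2 cows farthest from the median of *TLR3* and so rests on those cows. For *TLR6* and *TLR7* r was 0.45 without the 2 cows farthest from the median of *TLR6*, and for *TLR7* and *TLR10* it was 0.56 without those farthest in *TLR7*. By rho no pair passed, and the smallest adjusted permutation p was 0.0515. *TLR4* stood aside, with an r below 0 to *TLR3*, *TLR6*, *TLR7* and *TLR10*. The lowest was -0.51 with *TLR3* (permutation p = 0.0718, adjusted p = 0.188; rho = -0.65), at -0.45 within the high and -0.56 within the low group, and at -0.55 without the 2 cows farthest in *TLR3*.

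**Figure D4:**
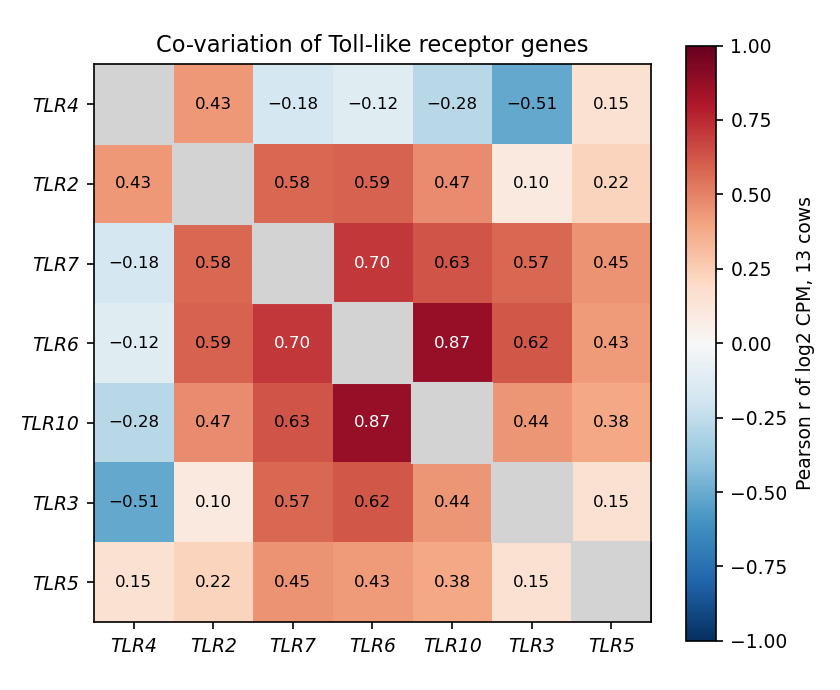
Pearson's r of log2 CPM over the 13 cows for each pair of the 7 genes, red for positive and blue for negative values, with the value written in each cell. *TLR6*, *TLR7* and *TLR10* form the block of highest values, from 0.63 to 0.87, and the row of *TLR4* holds the negative values, down to -0.51.

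The receptors were also set against the first principal component, which was taken over 11030 of the 11033 genes tested. Receptor genes are therefore among the genes of the component. Its scores had an r of 0.77 with *TLR3*, 0.72 with *TLR6* and 0.64 with both *TLR7* and *TLR10* (adjusted permutation p = 0.0102, 0.0358, 0.0358 and 0.0372 over 7 genes). The rho of these 4 was 0.66, 0.50, 0.60 and 0.39, with no adjusted p below 0.05. Without the 2 cows farthest from the median of the gene, r was 0.05 for *TLR6* and 0.02 for *TLR10*, so these 2 relations rest on those cows, and it was 0.50 for *TLR3* and 0.67 for *TLR7*. The r with *TLR4* was -0.34. When the component was removed, a step chosen after seeing the data, the r of *TLR6* and *TLR10* was 0.77 (adjusted permutation p = 0.0538) and no pair passed.

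The receptors were next compared with genes of co-receptors, accessory proteins, chaperones and adaptors, over 11 gene pairs. Those of *TLR10* with *CD180* and *LY86* are not established partnerships. All 11 pairs were named after values of these data were seen. The adjustment covers these 11 pairs alone and not that choice. 1 of the 11 had an adjusted permutation p below 0.05, *TLR3* and the chaperone gene *UNC93B1*, and its direction was negative (r = -0.79, permutation p = 0.00138, adjusted p = 0.0152; rho = -0.86, adjusted p = 0.00308). *UNC93B1* had 392.5, 455.3 and 606.3 CPM in the lowest, median and highest cow of the high group, and 415.4, 470.2 and 603.5 CPM in the low group, and both genes overlapped between the groups. The r was -0.84 within the high and -0.79 within the low group, -0.81 without replicate 4 and -0.79 without the 2 cows farthest from the median of *TLR3*. In r to *TLR3*, *UNC93B1* held place 333 from the lowest of 11032 genes, behind many other genes. *UNC93B1* itself had an r of -0.66 with the first principal component, and the r of the pair was -0.60 (adjusted permutation p = 0.0912) when it was removed. It was -0.77 (adjusted permutation p = 0.0520) without replicate 2 of the high group. For *TLR7*, the other endosomal receptor of RNA measured here, r was -0.40 (permutation p = 0.169, adjusted p = 0.265; rho = -0.40).

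**Figure D5:**
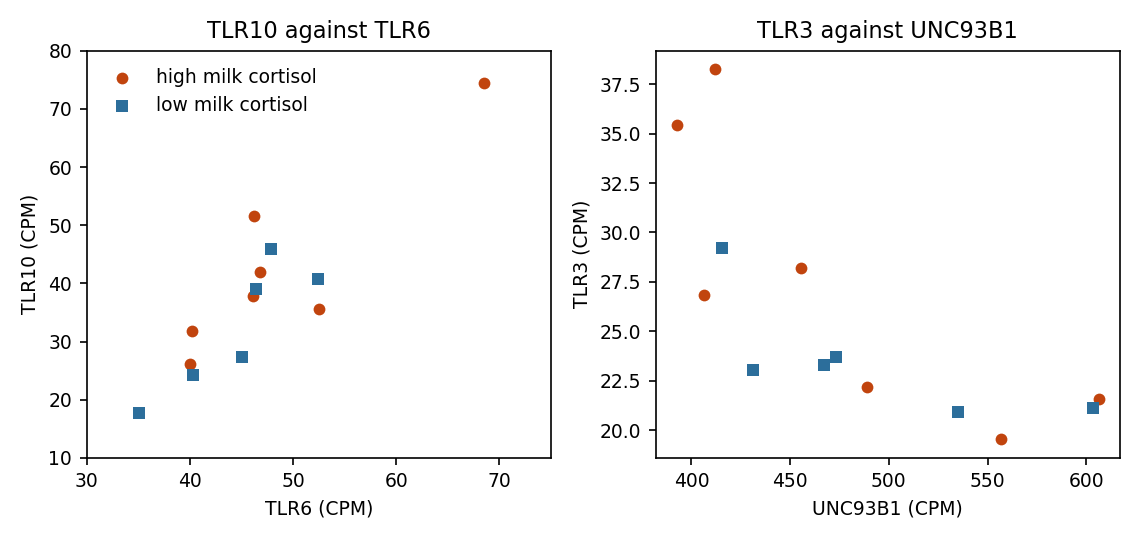
CPM of *TLR10* against *TLR6* (left) and of *TLR3* against *UNC93B1* (right), with 1 point per cow, circles for the high and squares for the low group. *TLR10* rises with *TLR6* up to replicate 4 of the high group (68.5 and 74.4 CPM), and *TLR3* is lower in cows with more *UNC93B1* in both groups, with r of 0.87 and -0.79 on the log2 CPM scale.

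The lipopolysaccharide receptor complex was examined through *TLR4* and its partners. *TLR4* had an r of 0.61 with *CD14*, which hands lipopolysaccharide to the complex (permutation p = 0.0266, adjusted p = 0.0976; rho = 0.34), and of 0.65 with *MyD88* (permutation p = 0.0164, adjusted p = 0.0902; rho = 0.64). With *LY96*, which encodes the binding partner MD-2, it was -0.09 (permutation p = 0.783, adjusted p = 0.783; rho = 0.01). *TLR10* and *CD180*, a receptor of B cells that resembles TLR4, had an r of 0.50 (permutation p = 0.0860, adjusted p = 0.201; rho = 0.64), and *TLR10* with *LY86*, whose product binds CD180, one of -0.33 (permutation p = 0.273, adjusted p = 0.375; rho = -0.06). *TLR2* had an r of 0.48 with *CD14* (permutation p = 0.0914, adjusted p = 0.201; rho = 0.38) and of -0.16 with *MyD88* (permutation p = 0.611, adjusted p = 0.672; rho = -0.03). The remaining pairs were *TLR4* with *CD180* (r = 0.22, adjusted permutation p = 0.586; rho = 0.30) and *TLR3* with *TICAM1* (r = -0.44, adjusted permutation p = 0.234; rho = -0.40). Each r was also taken without the 2 cows farthest from the median of the receptor gene. For *TLR4* it was then 0.77 with *CD14*, 0.57 with *MyD88*, 0.02 with *LY96* and -0.06 with *CD180*. For *TLR10* it was 0.61 with *CD180* and 0.17 with *LY86*. For *TLR2* it fell to 0.19 with *CD14* and was -0.06 with *MyD88*, and for *TLR3* with *TICAM1* it was -0.27. Apart from *TLR3* and *UNC93B1*, the smallest adjusted permutation p of rho in the 11 pairs was 0.0826.

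Each receptor was also set against 10 marker and response scores, the depth and the haemoglobin share, 84 relations in all. None had an adjusted permutation p below 0.05, and 4 had an unadjusted one, each with an adjusted p of 0.562. *TLR2* had an r of -0.69 with the T cell score (permutation p = 0.0102; rho = -0.64), and *TLR5* of 0.59 with the neutrophil score (permutation p = 0.0303; rho = 0.64). *TLR4* had an r of 0.65 with the glucocorticoid response score (permutation p = 0.0161; rho = 0.75) and of 0.61 with the interferon response score (permutation p = 0.0267; rho = 0.68). Without the 2 cows farthest from the median of the score, these 4 r were -0.58, 0.64, 0.70 and 0.51, and by rho the smallest adjusted permutation p of the 84 was 0.335. The glucocorticoid response score, made of genes that cortisol is known to induce such as *FKBP5* and *TSC22D3*, differed by 0.03 between the groups (exact permutation p = 0.843). The interferon response score was lower in the high group by 0.82 (exact permutation p = 0.0874), the direction of *TLR4*, and the erythroid score was higher by 0.55 (exact permutation p = 0.0291). Their part in the receptor values was not tested. *TLR10* and the B cell score, a mean over 9 genes that holds no receptor gene, had an r of 0.44 (permutation p = 0.133, adjusted p = 0.660; rho = 0.66). This r was 0.18 within the high and 0.63 within the low group, 0.36 with log2 CPM centred within the groups, and 0.38 without the 2 cows farthest from the median of the score. It was 0.68 without replicate 4, and 0.89 (adjusted permutation p = 0.00588) when the first principal component was removed, a step chosen after seeing the data.

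The genes whose pattern over the 13 cows was most like each receptor were searched among 10507 genes with a mean of at least 1 CPM. The search used Pearson's r and is a description without a test. With 13 cows, the 3 highest of so many r are high by selection alone. Of all genes tested, between 0.354% (*TLR5*) and 8.55% (*TLR3*) had an r over 0.7 with the receptor, and 2.68% for *TLR4*. A function named below is background, and a shared function was not tested. *TLR2* was followed by *CYFIP1* (r = 0.87), *CD86* (0.86), which encodes a co-stimulatory ligand of antigen-presenting cells, and *DSE* (0.84). *TLR4* was followed by *ALPK1* (r = 0.94), which encodes a cytosolic sensor of bacterial sugars, the kinase gene *PTK2B* (0.90) and *CARD15* (0.89), an older name of the gene of the peptidoglycan sensor NOD2. The r of *ALPK1* was 0.90 within the high and 0.96 within the low group.

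*TLR10* was followed by *CAMK2D* (r = 0.94), *SESN1* (0.93) and *DNAJC27* (0.93), and *TLR6* by *USP24* (0.93), *RFWD3* (0.92) and *SCRN3* (0.92). *TLR7* was followed by *MOB1B* (r = 0.94), *UBLCP1* (0.88) and *NPL* (0.88), and *TLR3* by *IMPG2* (0.93), *HSBP1* (0.93) and *MTX2* (0.91). For *TLR5* the highest r were lower, at 0.81 for *LMLN*, 0.79 for *C9orf64* and 0.78 for *C16orf87*, and the r of *LMLN* was 0.46 within the high and 0.97 within the low group.

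The other genes of the pathway were read from the same edgeR fit. Of 72 listed genes, 66 had an entry and 62 passed the filter, and 0 of these passed an adjusted p of 0.05 between high and low milk cortisol. An unadjusted p below 0.05 was found for 1 of 62 (1.61%, against 2.09% of all genes tested), and the log2 fold change was above 0 in 27 and below 0 in 35. The single gene was *PTGS2*, which encodes the inducible cyclooxygenase, an enzyme of prostaglandin synthesis. It had 1.99, 3.25 and 10.6 CPM in the lowest, median and highest cow of the high group, and 0.902, 1.65 and 4.95 CPM in the low group. These values rest on 10 to 166 counts. The groups overlapped, and 7 of 7 high cows were above the low median. The log2 fold change was 0.98 ± 0.45 (SE; edgeR p = 0.0459, adjusted p = 0.998, exact permutation p = 0.0594).

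By role, the log2 fold change was below 0 in 5 of 5 adaptors, between -0.27 ± 0.16 (SE) for *MyD88* and -0.02 ± 0.13 for *TICAM1*, and in 8 of 9 transcription factors, with *IRF7* lowest at -0.45 ± 0.44 and *REL* highest at 0.17 ± 0.23. Over all genes tested it was below 0 in 5148 of 11033, and none of the adaptors or transcription factors had an unadjusted p below 0.05. *MyD88* had 612.8, 872.0 and 1352 CPM in the lowest, median and highest cow of the high group, and 961.5, 1121 and 1399 CPM in the low group, with 5 of 7 high cows below the low median (exact permutation p = 0.117). Among 4 co-receptors and accessory proteins tested, 2 above and 2 below 0, the values ran from -0.18 ± 0.15 for *LY86* to 0.48 ± 0.36 for *LY96*. Among 7 chaperones and processing enzymes, 3 above and 4 below 0, they ran from -0.21 ± 0.11 for *LGMN*, the protease legumain, which was below the low median in 7 of 7 high cows (edgeR p = 0.0736, exact permutation p = 0.0559), to 0.08 ± 0.10 for *CTSK*.

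The 16 kinases and ubiquitin ligases tested, 9 above and 7 below 0, lay between -0.10 ± 0.11 for *IKBKE* and 0.24 ± 0.22 for *MAP3K7*, which encodes the kinase TAK1. The 12 inhibitors, 7 above and 5 below 0, lay between -0.35 ± 0.40 for *IL1RL1* and 0.21 ± 0.30 for *SOCS1*. Of 9 target cytokines and enzymes tested, 5 were above and 4 below 0, and *IL1B*, the gene of interleukin-1 beta, was lowest at -0.25 ± 0.14 (exact permutation p = 0.101), with 6 of 7 high cows below the low median. The cytokine gene *IL6* did not pass the filter, with 0 to 4 counts per cow. None of these differences passed the adjusted test, and each is given as a value only.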

How the data were processed

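The authors deposited counts of reads per gene name for each cow, as whole numbers without normalization. Per the file headers they were made with featureCounts 1.4.6-p3 on exons of the Ensembl release 88 models of UMD3.1, whereas the study's methods and the submitters' processing notes name STAR 2.7.3, Subread 1.6.5 and ARS-UCD1.2. Which of these made the counts was not settled, and positions and exon lengths are those of the tables. Settings for strand and for reads that fit several genes are not given in the sources used here. Genes without a name share 1 entry (13.9% to 16.7% of counts), which was left out. Depth was 11045599 to 28124575 counts, and its precision is given with the results.

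The 7 high and 6 low cows were compared with edgeR 4.0.16 in R 4.3.3 (quasi-likelihood, robust, TMM, filterByExpr with minimum count 10 and total 15, no covariates), with Benjamini-Hochberg adjustment over all genes tested. The SE is the log2 fold change divided by the root of F. CPM and RPKM used TMM-scaled totals, and log2 CPM a prior count of 2. Exact permutation tests ran over the 1716 allocations of 7 and 6 cows (two-sided, smallest p 0.0012), and correlation p came from 100000 resamples (scipy 1.17.1), adjusted within each family. Alternatives were DESeq2 1.42.0, limma-voom (limma 3.58.1), RLE factors, other filters, a fit that is not robust, haemoglobin genes left out, haemoglobin share or neutrophil score as covariate, a prior count of 0.5, centring within groups, and each cow left out. The fit was tested on simulated data.

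The members, lists and tests were chosen with earlier results of these data known. The genes named are all members, the pathway genes with an unadjusted p below 0.05, those with the largest and smallest log2 fold change in each role list, and the 3 genes nearest to each member. *IL6*, the genes of the 11 added pairs and the neighbours on chromosome 6 are outside this rule and were named after values were seen. The same holds for the blood cell genes and the 2 glucocorticoid response genes given as examples of their lists.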

Additional observations from a re-analysis of the deposited data

How the results depend on the processing

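None of the 7 receptor genes passed an adjusted p of 0.05 under any alternative. For their order, the alternatives run were median RPKM and each cow left out. In all of these, 4 of 6 neighbour steps exceeded the spread between cows. Over all genes, DESeq2 called 1 gene, and the number with an unadjusted p below 0.05 was 348 with DESeq2, 414 without a filter on low counts, 120 with the haemoglobin covariate, 647 with the neutrophil covariate, and between 191 and 373 with 1 cow left out. The number of receptor genes with such a p was between 0 and 1 with 1 cow left out, the 1 being *TLR4* without replicate 2 of the high or replicate 13 of the low group. For *TLR2* the log2 fold change, near 0, turned positive with at least 10 counts in every cow (0.00059), with the haemoglobin covariate (0.18) and with the neutrophil covariate (0.0565), and lay between -0.0799 and 0.0625 with 1 cow left out. That of *TLR5* lay between -0.0250 and 0.21, and was below 0 without replicate 13 of the low cows. The neutrophil covariate moved *TLR5* from 0.12 to 0.37. In each case the cause was not tested.

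The number of receptor pairs with an adjusted p below 0.05 was 0 by Spearman's rho (0.79 for *TLR6* and *TLR10*) and 0 with the first principal component removed (r = 0.77). With 1 cow left out it was between 1 and 4, at 2 without replicate 1 and 4 without replicate 7 of the high group. The r of *TLR6* and *TLR10* then lay between 0.79 and 0.91, that of *TLR3* and *UNC93B1* between -0.84 and -0.75, and that of *TLR10* and the B cell score between 0.36 and 0.68. Removing the component gave 1 relation to the scores (*TLR10* and B cells, 0.89) and -0.60 for *TLR3* and *UNC93B1*, an alternative chosen after seeing the data, as were all those of *UNC93B1*. With 7 and 6 cows, the upper limits of the fold were 1.90 for *TLR10* and 1.59 for *TLR5*, and the lower limit was 0.587 for *TLR4*. No paired analysis was run, because the groups are separate cows and no pairing of high with low cows is named.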

Other observations

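In 28 comparisons of the highest or lowest cow of a group with the others, over the 7 receptor genes and both groups, Dixon's gap test at 95% marked 0 cows, and about 0.7 would be marked by chance. Replicate 4 of the high group and replicate 13 of the low group, the ends of the range of *TLR10*, were among the cows compared.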
